A study of Mus musculus with 12 samples.

Results

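Mitochondrial fatty acid oxidation in injured mouse muscle was followed through Ppargc1a, a transcriptional coactivator, and a set of genes that it is known to serve. Of 10 listed genes (Ppargc1a, Ppara, Cpt1b, Cpt2, Acadm, Acadl, Acadvl, Hadha, Ucp3 and Pdk4), 9 had a probe group of their own on the array and were kept, among 19752 genes measured in the same way. Cpt1b shares its probe group with another gene symbol and is only named here. Where a gene had several probe groups, the one with the highest mean over the 12 arrays was used. No difference between the groups of arrays entered that choice of probe group. The gene list itself was chosen with earlier results of these data known.

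The arrays measured RNA of whole tibialis anterior muscle from C57BL/6 mice aged 8 weeks, under a title that asks what amphiregulin (AREG) does with and without regulatory T cells. There were 4 groups of 3 arrays: Foxp3-DTR+ mice given AREG and Foxp3-DTR+ mice given phosphate-buffered saline (PBS), both dissected at day 8, and Foxp3-DTR- mice given AREG and Foxp3-DTR- mice given PBS, both dissected at day 4. Every mouse had its muscle injured with the snake toxin cardiotoxin at the start, and every mouse, the Foxp3-DTR- ones included, received diphtheria toxin on alternate days, so no group was free of injury or of the toxin. AREG, a growth factor of the epidermal growth factor family, or PBS was injected into the muscle on the day of injury and then into the peritoneum on alternate days. In Foxp3-DTR+ mice the diphtheria toxin receptor is carried under Foxp3, the gene that marks regulatory T cells. Day and genotype changed together, so they cannot be told apart in any contrast of day 8 with day 4. Whether the 3 arrays of a group stand for 3 mice is not in the labels, and the p-values therefore measure the spread between these arrays, which may be technical.

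Fatty acids are burned in the mitochondria of muscle by beta-oxidation, which shortens the chain by repeated rounds of dehydrogenation, hydration and thiolysis after the carnitine shuttle has brought the chain inside. Ppara, a fatty acid-sensing nuclear receptor, switches on many genes of this route, and Ppargc1a binds Ppara and its relatives to raise their activity. Muscle relies on this route at rest, in fasting and in endurance work, and Ppargc1a is known there as a driver of mitochondrial content.

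The start-site windows of Ppargc1a and Ucp3 are shown because these were the members whose levels passed a test between groups. RefSeq promoter windows of build GRCm38.p6, running from 250 bases before to 50 bases after the start, were found for 9 of 9 members. Capitals mark every match to AGGTCA, the hexamer that nuclear receptors read, or to TGACG, the core of the cyclic AMP response element, on either strand. The Ppargc1a window lies at chr5:51567676-51567975 on the minus strand and the Ucp3 window at chr7:100472741-100473040 on the plus strand, and both are written 5′ to 3′ on the gene's own strand.
Ppargc1a: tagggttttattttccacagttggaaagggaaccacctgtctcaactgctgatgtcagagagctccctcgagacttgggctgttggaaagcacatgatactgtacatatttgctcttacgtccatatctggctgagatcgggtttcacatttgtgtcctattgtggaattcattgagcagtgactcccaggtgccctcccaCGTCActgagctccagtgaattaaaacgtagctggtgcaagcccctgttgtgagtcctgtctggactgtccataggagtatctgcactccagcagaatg
Ucp3: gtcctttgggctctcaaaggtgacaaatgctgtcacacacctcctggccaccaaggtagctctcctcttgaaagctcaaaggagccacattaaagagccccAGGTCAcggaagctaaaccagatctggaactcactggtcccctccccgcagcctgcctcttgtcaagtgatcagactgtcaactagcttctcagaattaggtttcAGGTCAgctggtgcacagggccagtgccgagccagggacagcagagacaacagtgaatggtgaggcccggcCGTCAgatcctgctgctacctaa

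In the Ppargc1a window 1 TGACG match, on the reverse strand, began at position -49 from the start. The Ucp3 window held AGGTCA at positions -149 and -44, and a reverse-strand TGACG at position 28. On both strands together, AGGTCA occurred in 3 of 9 members (Acadm, Acadvl and Ucp3) and in 16.3% of the 32851 windows of 300 bases in the RefSeq table. TGACG occurred in 4 of 9 members (Ppargc1a, Ppara, Acadm and Ucp3) and in 20.8% of the windows. The ETS-factor letters CCGGAAG were found in 1 member, Cpt2 (8.86% of windows). The longer forms AGGTCANAGGTCA, bound by Ppara with its partner Rxra (0.0396% of windows), TNAAGGTCA, bound by estrogen-related receptors (1.28%), and TGACGTCA (1.79%) had no match in the 9 windows; the first and the second contain AGGTCA and the third contains TGACG. These counts describe letters in the windows only.

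All values below are log2 of the deposited RMA intensity, and a difference of 1 is a doubling. Median intensity ranged from 134 to 143 over the 12 arrays and the median gene had a level of 7.15 log2 units. The spread of levels was less even. The interquartile range over all genes was narrowest in day 4 AREG replicate 1 (2.07 log2 units) and widest in day 8 PBS replicate 1 (2.61). RMA intensities carry no detection call, and each probe group has its own brightness, so levels of different genes are not compared. Foxp3 itself read 6.58 to 6.75 in AREG-treated and 6.49 to 6.65 in PBS-treated Foxp3-DTR+ muscles at day 8, against 6.51 to 6.73 in AREG-treated and 6.51 to 6.67 in PBS-treated Foxp3-DTR- muscles at day 4. These whole-muscle Foxp3 readings overlapped in all groups, at the 38.2 percentile of gene levels, and so do not check the depletion. Of the fast-fibre markers that define the labelled tissue, 20 of 20 had a mean level above the median gene, as had 14 of 14 endothelial, 10 of 10 matrix-producing cell and 17 of 19 macrophage markers, so this count does not tell the fibres from the other cells of the tissue. Since the samples are whole tissue, fewer cells of a type and less RNA per cell cannot be told apart.

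At day 4 AREG raised Ppargc1a 1.57-fold over PBS, and it was the only one of the 9 members to pass the test. Its level was 10.01, 10.04 and 9.94 in the AREG muscles, against 9.17, 9.36 and 9.51 in the PBS muscles. The lowest AREG array lay above the highest PBS array. As linear intensity the means were 1022 ± 39.0 with AREG and 655 ± 76.2 with PBS (SD, n = 3 each). The log2 difference was 0.65 ± 0.11 (SE; 95% interval 0.40 to 0.89), with an adjusted p of 0.0198 in limma, Benjamini-Hochberg adjusted over all 19752 genes and called under 0.05. Ppargc1a ranked 41 by p among all genes. The call held in 18 of 21 alternatives; it was lost without day 4 AREG replicate 1 (adjusted p = 0.0654), without day 4 AREG replicate 3 (0.0718) and without day 4 PBS replicate 2 (0.139) in limma. Over these alternatives the difference lay between 0.52 and 0.73.

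Of the 9 members, 1 was called higher and 0 lower at day 4, against 2.9% of all genes called, 0.79% higher and 2.11% lower. The difference was above 0 in 9 of 9 members and in 59.1% of all genes. In 6 of the 9 every AREG array lay above every PBS array, which held for 10.2% of all genes, and 6 had an unadjusted p under 0.05, against 17% of all genes in either direction. The median difference over the members was 0.37 log2 units, against 0.04 over all genes. The members were chosen with earlier results of these data known, so these shares describe them and are no test. Deviations of same-numbered day 4 arrays from their group means correlated positively, so a second fit, blocked on replicate number, is given as well. Both replicate 1 arrays of day 4 had the narrowest interquartile range of log2 levels, 2.07 with AREG and 2.27 with PBS. In the other arrays it was 2.39 to 2.61. Whether this shared width gave the correlation was not tested. The labels give no pairing, and AREG replicate 2 correlated more with PBS replicate 3 (0.270) than with PBS replicate 2 (0.201). The blocked fit called 3 members, with limma adjusted p-values of 0.0149 for Ppargc1a, 0.0305 for Ucp3 and 0.0402 for Ppara.

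Ppara, the receptor that Ppargc1a coactivates, read 7.92, 7.89 and 8.13 with AREG at day 4, against 7.36, 7.03 and 7.74 with PBS. The groups did not overlap, and the PBS arrays spread more widely than the AREG arrays. The difference of 0.60 ± 0.18 (95% interval 0.23 to 0.98) had a limma adjusted p of 0.0798. Ppara was called without day 4 PBS replicate 3 (adjusted p = 0.0368), without day 8 AREG replicate 1 (0.0413) and without day 8 AREG replicate 3 (0.0367) in limma, the last pair acting only through the shared estimate of spread.

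Ucp3, a mitochondrial carrier of muscle whose transcript follows fatty acid supply, read 8.80, 9.28 and 8.56 with AREG at day 4, against 8.07, 8.50 and 7.83 with PBS. The lowest AREG array lay just above the highest PBS array, and both groups were wide. The difference of 0.75 ± 0.21 (95% interval 0.30 to 1.20), 1.68-fold, was the largest among the members in the reported fit but had a limma adjusted p of 0.0687. With array quality weights it was 0.40 (limma adjusted p = 0.122), below the 0.84 of Ppara. Pdk4, the kinase that shuts off pyruvate dehydrogenase and so spares glucose when fat is burned, read 11.71, 11.54 and 11.78 with AREG, against 10.81, 11.27 and 11.12 with PBS. The Pdk4 groups were also separate, and the difference was 0.61 ± 0.28 (limma adjusted p = 0.276). Without day 8 AREG replicate 3, Ucp3 (adjusted p = 0.0349) and Pdk4 (0.0261) were both called at day 4 in limma.

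The enzymes of the route itself gave smaller differences at day 4. Cpt2, which hands fatty acids from carnitine back to coenzyme A on the inner mitochondrial membrane, read 9.68, 9.66 and 9.80 with AREG, against 9.29, 9.34 and 9.58 with PBS. Acadvl, which starts the oxidation of very long chains, read 9.40, 9.66 and 9.70 with AREG, against 9.09, 9.19 and 9.37 with PBS. Both genes had separate groups, with differences of 0.31 ± 0.13 (Cpt2, limma adjusted p = 0.231) and 0.37 ± 0.12 (Acadvl, 0.113). Acadm, the medium-chain dehydrogenase, read 10.94, 11.20 and 11.36 with AREG, against 10.81, 10.62 and 11.11 with PBS. Hadha, the alpha subunit of the trifunctional protein that carries out the later steps on long chains, read 10.93, 11.34 and 11.34 with AREG, against 10.82, 10.89 and 11.13 with PBS. In these 2 genes the groups overlapped, and the differences were 0.32 ± 0.17 (Acadm, limma adjusted p = 0.375) and 0.26 ± 0.13 (Hadha, 0.360). Acadl, the long-chain dehydrogenase, read 10.27, 10.49 and 10.46 with AREG, against 10.19, 10.40 and 10.52 with PBS. These Acadl groups lay on top of each other, with a difference of 0.03 ± 0.12 and a 95% interval of -0.23 to 0.30 (limma adjusted p = 0.945).

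**Figure D1:**
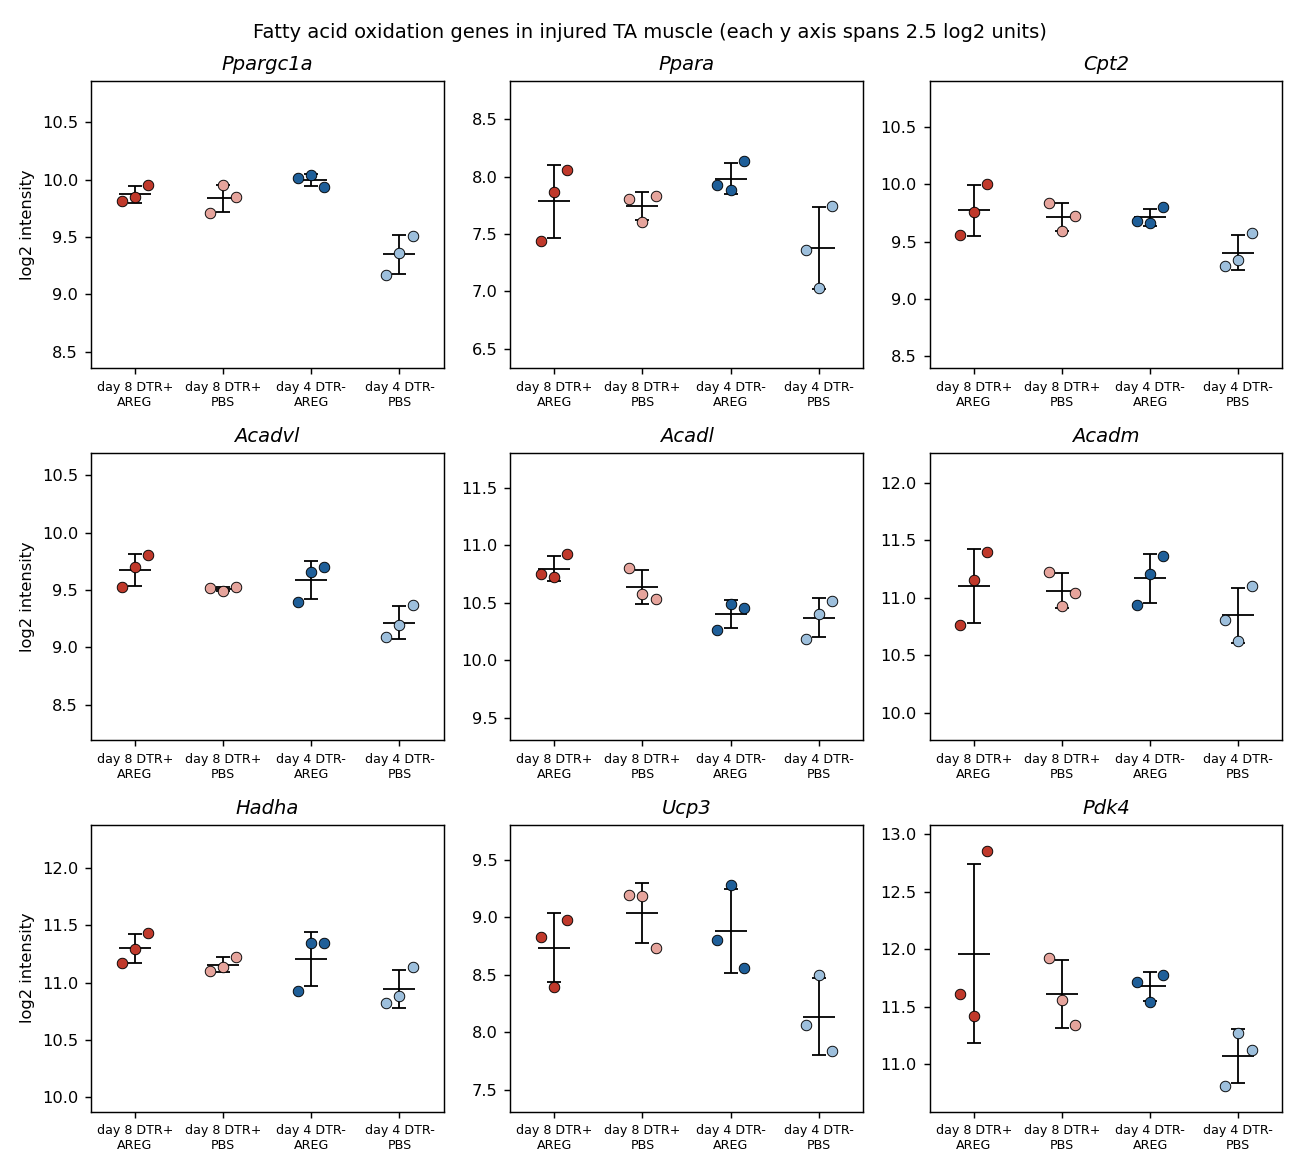
Level of each of the 9 members in the 12 arrays (log2 RMA intensity on the vertical axis, a panel for each gene), with points for arrays and black bars for the group mean and SD (n = 3); every panel spans the same range. In Ppargc1a the 3 day 4 PBS points (9.17 to 9.51) lie below all 9 other points, and in Pdk4 a day 8 AREG array at 12.86 stands above the rest.

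At day 8, in Foxp3-DTR+ mice, no member was called between AREG and PBS, with 0 of 9 under an unadjusted p of 0.05 in limma; over all genes 0.00506% were called and 7.62% passed unadjusted. Ppargc1a read 9.81, 9.85 and 9.95 with AREG, against 9.71, 9.95 and 9.85 with PBS. These 6 arrays covered the same range, and the linear means were 937 ± 47.9 with AREG and 917 ± 75.4 with PBS (SD, n = 3 each). The Ppargc1a difference was 0.03 ± 0.11 with a 95% interval of -0.21 to 0.28 (limma adjusted p = 0.960). The day 4 estimate was 0.65 (95% interval 0.40 to 0.89). The direct test of the difference of effects, given below, passed for no member in the reported fit.

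Ppara read 7.43, 7.87 and 8.06 with AREG at day 8, against 7.80, 7.60 and 7.83 with PBS, a difference of 0.04 ± 0.18 (limma adjusted p = 0.968). Ucp3 read 8.83, 8.40 and 8.97 with AREG, against 9.19, 9.19 and 8.73 with PBS, and was the only member with a difference below 0. That Ucp3 difference was -0.30 ± 0.21 (95% interval -0.75 to 0.15, limma adjusted p = 0.773), and its groups overlapped. Pdk4 read 11.61, 11.42 and 12.86 with AREG, against 11.92, 11.56 and 11.34 with PBS. The array at 12.86, day 8 AREG replicate 3, set the Pdk4 difference: it was 0.35 ± 0.28 with that array (limma adjusted p = 0.791) and -0.09 without it.

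Among the enzymes at day 8, Acadl read 10.75, 10.72 and 10.92 with AREG, against 10.81, 10.57 and 10.53 with PBS. Acadvl read 9.52, 9.70 and 9.80 with AREG, against 9.52, 9.49 and 9.52 with PBS. The Acadvl groups were separate by less than the rounding of these values, the only separate pair among the members, against 7.06% of all genes separate with AREG higher and 7.14% with AREG lower. Cpt2 read 9.56, 9.76 and 10.004 with AREG, against 9.84, 9.59 and 9.72 with PBS. Acadm read 10.76, 11.16 and 11.40 with AREG, against 11.23, 10.92 and 11.04 with PBS. In both, AREG replicate 1 was the lowest of the 6 arrays and AREG replicate 3 the highest. Hadha read 11.17, 11.29 and 11.43 with AREG, against 11.10, 11.13 and 11.23 with PBS. Differences of the enzymes ran between 0.04 ± 0.17 for Acadm and 0.17 ± 0.12 for Acadvl, with limma adjusted p-values of 0.780 (Acadvl) or more. The difference was above 0 in 8 of 9 members and in 51.2% of all genes. The median over the 9 members was 0.06, against 0.005 over all genes; it was -0.060 without day 8 AREG replicate 3 and 0.21 without day 8 AREG replicate 1.

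**Figure D2:**
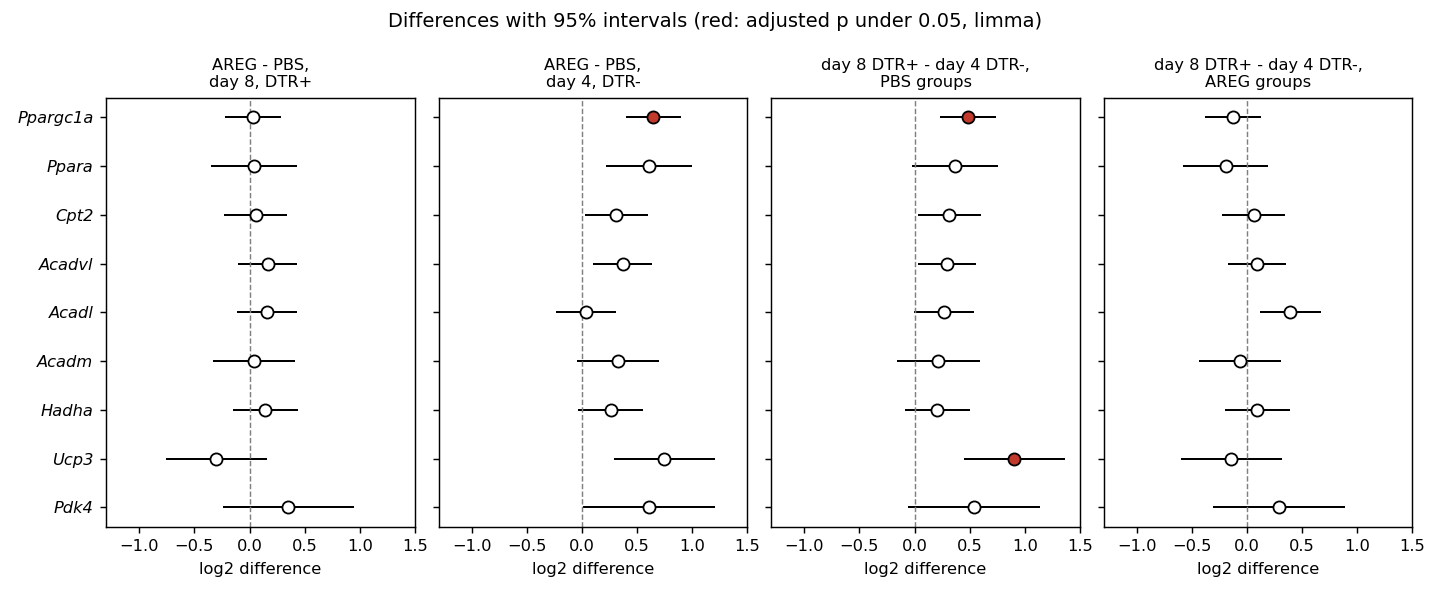
Difference of each member (log2 units on the horizontal axis) for AREG minus PBS at day 8 and at day 4 and for day 8 minus day 4 in the PBS and in the AREG groups, with points for estimates (red where the adjusted p is under 0.05) and lines for 95% intervals. With AREG at day 8 all 9 intervals include 0; at day 4, 6 of 9 lie above 0, among them Ppargc1a (0.40 to 0.89), Ppara (0.23 to 0.98) and Ucp3 (0.30 to 1.20).

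Whether the AREG effect differed between the settings was tested directly. No member, and 0% of all genes, passed that test at an adjusted p under 0.05 in limma; at an unadjusted p under 0.05 there were 3 members of 9, against 5.87% of all genes. The effect at day 8 minus that at day 4 was -0.61 ± 0.16 for Ppargc1a (95% interval -0.96 to -0.27, limma adjusted p = 0.579). For Ucp3 it was -1.05 ± 0.30 (95% interval -1.69 to -0.41, limma adjusted p = 0.595). For Ppara it was -0.56 ± 0.25 (limma adjusted p = 0.821), and these were the 3 genes under the unadjusted threshold. The difference was above 0 in 1 of 9 members and in 47.2% of all genes, with a median of -0.25 against -0.01 over all genes, and Acadl was the member above 0, at 0.13 ± 0.18. With array quality weights these 3 genes were called, at limma adjusted p-values of 0.0111 for Ppargc1a, 0.0228 for Ppara and 0.0278 for Ucp3. That fit called 2232 genes or 11.3% of all genes in this contrast. Its weights ran from 0.17 to 5.52 among day 4 AREG arrays and from 0.32 to 7.43 among day 8 AREG arrays. In that fit 1 array thus dominated each AREG group.

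Averaged over both settings, the AREG effect on Ppargc1a was 0.34 ± 0.08 (limma adjusted p = 0.0353), the only call among the members, against 3.41% of all genes called, 0.415% higher and 2.99% lower. Over all genes the count called for the mean effect was 673, and it was 34 without day 4 PBS replicate 2 and 1488 without day 8 AREG replicate 1. The mean effect was above 0 in 9 of 9 members and in 58% of all genes, and 4 members had an unadjusted p under 0.05, against 18% of all genes. That call held in only 10 of the 20 alternatives. It was lost when day 4 AREG replicate 1 (adjusted p = 0.0668), 2 (0.0618) or 3 (0.0644), day 4 PBS replicate 1 (0.0662) or 2 (0.103), day 8 AREG replicate 2 (0.0646) or 3 (0.0656), or day 8 PBS replicate 1 (0.0903) or 3 (0.0921) was left out of the limma fit, and with the mean of both probe groups of Ppargc1a (0.0829). The mean effect of Ucp3, 0.22 ± 0.15 (limma adjusted p = 0.477), was -0.09 with array quality weights. Acadvl had a mean effect of 0.27 ± 0.09 (limma adjusted p = 0.0964). Ppara was called without day 8 AREG replicate 1 (adjusted p = 0.0478 in limma).

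In the contrast of the PBS-treated groups, Ppargc1a and Ucp3 were called higher at day 8 in Foxp3-DTR+ mice than at day 4 in Foxp3-DTR- mice. No other member was called. This contrast shares its day 4 PBS arrays with the AREG contrast at day 4, so these contrasts are not independent. Ppargc1a read 9.71, 9.95 and 9.85 at day 8 and 9.17, 9.36 and 9.51 at day 4, a difference of 0.49 ± 0.11 or 1.40-fold (95% interval 0.24 to 0.73, limma adjusted p = 0.0353). Ucp3 read 9.19, 9.19 and 8.73 at day 8 and 8.07, 8.50 and 7.83 at day 4, a difference of 0.90 ± 0.21 or 1.87-fold (95% interval 0.46 to 1.35, limma adjusted p = 0.0338). Neither gene's groups overlapped. As linear intensity, Ucp3 averaged 531 ± 91.3 at day 8 and 286 ± 68.1 at day 4 (SD, n = 3 each).

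These 2 calls among 9 members stood against 2.34% of all genes called, 1.19% higher and 1.15% lower. The difference was above 0 in 9 of 9 members (41.3% of all genes), and 6 members had separate groups (9.17% of all genes): Ppargc1a, Cpt2, Acadl, Acadvl, Ucp3 and Pdk4. At an unadjusted p under 0.05 there were 5 members, against 13.1% of all genes. The median was 0.31, against -0.04 over all genes. Beyond the 2 called genes the differences were 0.54 ± 0.28 for Pdk4, 0.37 ± 0.18 for Ppara, 0.31 ± 0.13 for Cpt2, 0.29 ± 0.12 for Acadvl, 0.27 ± 0.12 for Acadl, 0.22 ± 0.17 for Acadm and 0.21 ± 0.13 for Hadha, with limma adjusted p-values from 0.300 (Acadvl) to 0.631 (Acadm). Each call taken singly held in 14 of 21 alternatives, and the alternatives that lost it were only partly the same for both genes. Ppargc1a was lost in limma without day 4 PBS replicate 1 (adjusted p = 0.175) or 2 (0.139), day 8 PBS replicate 1 (0.0548), 2 (0.155) or 3 (0.121), day 4 AREG replicate 3 (0.0514) or day 8 AREG replicate 2 (0.0585). Ucp3 was lost in limma without day 4 PBS replicate 1 (adjusted p = 0.125) or 3 (0.119), day 8 PBS replicate 1 (0.157) or 2 (0.145) or day 4 AREG replicate 1 (0.0510), with quantile normalization repeated (0.0553) and with 32 added to each intensity (0.0648).

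Between the AREG-treated groups, day 8 against day 4, no member was called, against 0.719% of all genes, and 1 member had an unadjusted p under 0.05, against 10.3%. That member was Acadl, at 10.75, 10.72 and 10.92 in AREG muscles of day 8 and 10.27, 10.49 and 10.46 in those of day 4. The groups were separate, which held in that direction for 4.2% of all genes, and the difference was 0.39 ± 0.12 (limma adjusted p = 0.226). Ppargc1a differed by -0.13 ± 0.11 (limma adjusted p = 0.731), Ppara by -0.19 ± 0.18 (0.731) and Ucp3 by -0.15 ± 0.21 (0.829). Of the 9 members 5 were above 0 (34.8% of all genes), with a median of 0.06 against -0.06.

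Ordered by level, the Ppargc1a group means were highest in AREG-treated muscles at day 4 (1022 ± 39.0), followed by AREG-treated at day 8 (937 ± 47.9), PBS-treated at day 8 (917 ± 75.4) and PBS-treated at day 4 (655 ± 76.2; linear intensity, SD, n = 3 each). The upper 3 groups were not called different from their neighbours, and the lowest was called different from the group of its own day and from the other PBS group. For Ucp3 the order was PBS-treated at day 8 (531 ± 91.3), AREG-treated at day 4 (481 ± 126), AREG-treated at day 8 (432 ± 85.4) and PBS-treated at day 4 (286 ± 68.1). Pdk4 averaged 4425 ± 2599 in AREG-treated and 3165 ± 659 in PBS-treated muscles at day 8, and 3278 ± 279 in AREG-treated and 2168 ± 343 in PBS-treated muscles at day 4. Its SD with AREG at day 8 comes from replicate 3.

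The members differed in how tightly replicates agreed. The SD within groups was 0.113 log2 units for Ppargc1a, lower than in all but 14.8% of genes, and 0.439 for Pdk4, above 98.7% of genes. Acadvl (0.129), Acadl (0.138), Cpt2 (0.153) and Hadha (0.162) were below the middle of the genes, while Acadm (0.241) was at the 84.4 percentile, Ppara (0.256) at the 87.6 percentile and Ucp3 (0.319) above both. The Ucp3 difference at day 4 was thus larger than that of Ppargc1a and carried an SE of 0.21 against 0.11.

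Array by array, with each member centred on its own mean over the 12 arrays, the median over the 9 members was 0.03, 0.11 and 0.34 in AREG-treated and 0.18, -0.02 and 0.04 in PBS-treated muscles at day 8. At day 4 it was 0.03, 0.16 and 0.19 in AREG-treated and -0.36, -0.30 and -0.07 in PBS-treated muscles. The 3 day 4 PBS arrays were the lowest of the 12, with 0, 0 and 2 of 9 members above their own mean. In day 8 AREG replicate 3 all 9 members were above their mean.

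**Figure D3:**
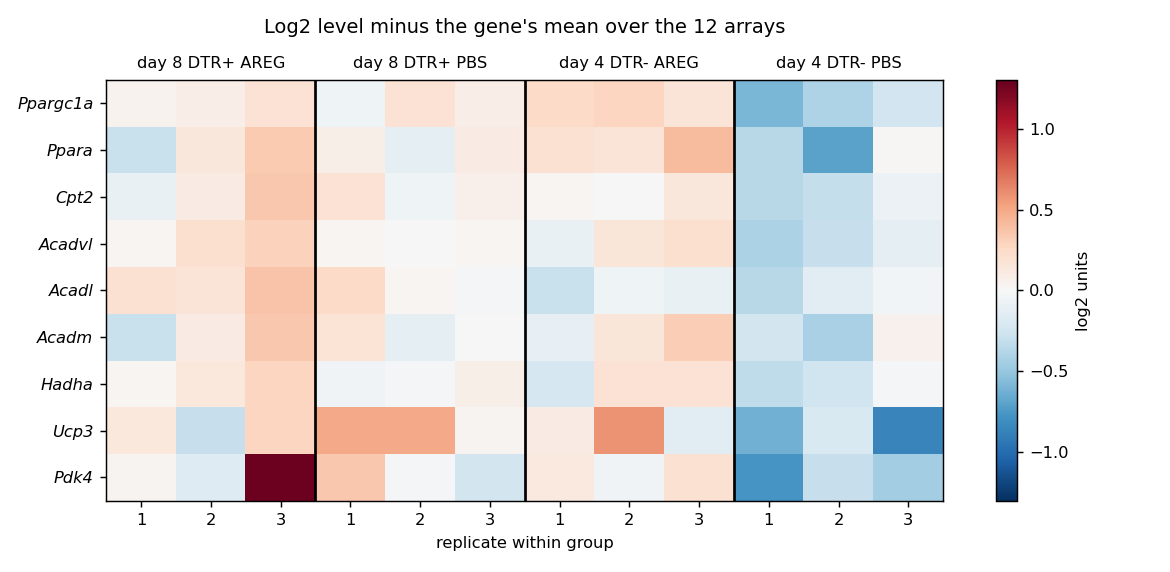
Level of each member (rows) in each array (columns, grouped by day and treatment), as log2 units above or below that gene's mean over the 12 arrays. The day 4 PBS columns are low, with array medians of -0.36 to -0.07, and the day 8 AREG replicate 3 column is the highest at 0.34.

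A dimmer probe group of Ppargc1a gave a like direction with less separation. It read 8.59, 8.60 and 8.50 in AREG-treated and 8.63, 8.64 and 8.35 in PBS-treated muscles at day 8, and 8.07, 8.72 and 8.51 in AREG-treated and 7.99, 7.90 and 8.22 in PBS-treated muscles at day 4. The day 4 groups overlapped, through AREG replicate 1. Its AREG difference was 0.03 at day 8 and 0.39 ± 0.15 at day 4 (limma adjusted p = 0.188), and its PBS difference, day 8 minus day 4, was 0.50 ± 0.15 (0.133).

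Other genes of fatty acid use were counted from lists, with the all-gene shares above as background. The 8 pathway lists held 117 measured genes, of which 0 were called between AREG and PBS at day 8 in limma and 11 had an unadjusted p under 0.05, against 56 under that threshold at day 4. The counts that follow are for day 4. Of 12 measured genes of fatty acid uptake and activation, 0 were called, 6 passed unadjusted and 11 were above 0; the median AREG effect was 0.15 at day 8 and 0.38 at day 4. Lipe, hormone-sensitive lipase, differed by 0.44 ± 0.14 (limma adjusted p = 0.0915) and Mgll, which finishes the breakdown of stored fat, by 0.39 ± 0.14 (0.167). Of 20 other genes of mitochondrial beta-oxidation, 0 were called, 9 passed unadjusted and 19 were above 0, with medians of 0.11 at day 8 and 0.29 at day 4. Crat, the carnitine acetyltransferase, differed by 0.37 ± 0.11 (limma adjusted p = 0.0913) and Decr1, which handles unsaturated chains, by 0.40 ± 0.13 (0.0983). The gene below 0, named after its values were seen, was Cpt1a, the form of the carnitine gatekeeper best known from liver, at -0.56 ± 0.19 (limma adjusted p = 0.127). Acacb, the carboxylase whose product restrains entry of fatty acids into mitochondria, was called in the mean of the AREG effects (0.54 ± 0.14, limma adjusted p = 0.0432).

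Of 9 measured genes of peroxisomal beta-oxidation, 1 was called higher with AREG at day 4 and 0 lower, with medians of -0.07 at day 8 and 0.24 at day 4. The gene called was Abcd2, a peroxisomal transporter of very long chains, at 9.44, 9.61 and 9.78 with AREG, against 8.83, 8.70 and 9.08 with PBS. Its difference was 0.74 ± 0.15 (limma adjusted p = 0.0274). At day 8 Abcd2 read 9.03, 9.34 and 9.01 with AREG, against 9.61, 9.23 and 9.12 with PBS, and those groups overlapped. All 10 measured genes of ketone body use and amino acid breakdown were above 0 at day 4, 7 passed unadjusted and 0 were called, with medians of 0.02 at day 8 and 0.45 at day 4. Mmut, the mutase that feeds propionate carbon into the tricarboxylic acid cycle, differed by 0.50 ± 0.13 (limma adjusted p = 0.0545) and Bdh1, a ketone body dehydrogenase, by 0.58 ± 0.16 (0.0691).

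In the control of pyruvate dehydrogenase, the enzyme that Pdk4 inhibits, 0 of 11 measured genes were called higher and 1 lower at day 4, with medians of -0.07 at day 8 and 0.25 at day 4. Pdk3, another kinase of that enzyme, fell: it read 6.52, 7.21 and 6.96 with AREG, against 7.37, 7.84 and 7.88 with PBS, a difference of -0.80 ± 0.18 (limma adjusted p = 0.0338). Pdk3 was also called lower in the mean of the AREG effects (-0.68, limma adjusted p = 0.0187). In this list 10 of 11 genes were above 0 at day 4, and Pdk3 was the gene below. The other listed kinases, Pdk1 and Pdk2, were thus above 0, as was the member Pdk4, and of these kinases only Pdk3 was called. The mean level of Pdk3 over the 12 arrays was 7.20, close to the median gene at 7.15. Of 16 measured genes of the tricarboxylic acid cycle, which burns the acetyl units that beta-oxidation makes, 0 were called, 12 passed unadjusted and 16 were above 0 at day 4, with medians of -0.12 at day 8 and 0.33 at day 4. Sucla2, a succinyl-coenzyme A ligase subunit, differed by 0.46 ± 0.13 (limma adjusted p = 0.0798) and Ogdh, the oxoglutarate dehydrogenase, by 0.45 ± 0.17 (0.163).

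Among 26 measured relatives and partners of Ppargc1a, 0 were called at day 4, 4 passed unadjusted and 22 were above 0, with medians of 0.02 at day 8 and 0.19 at day 4. Rxra, the dimer partner of Ppara, differed by 0.37 ± 0.13 (limma adjusted p = 0.133) and Esrrg, an estrogen-related receptor, by 0.36 ± 0.13 (0.138). In the mean of the AREG effects Rxra was called higher (0.36 ± 0.09, limma adjusted p = 0.0400), with a difference of 0.36 at day 8 and 0.37 at day 4.

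Of 13 other known targets of PPAR receptors, 2 were called higher and 1 lower at day 4, with medians of 0.04 at day 8 and 0.13 at day 4. Vldlr, a receptor that takes up triglyceride-rich lipoproteins, read 10.91, 10.84 and 10.99 with AREG, against 10.11, 9.73 and 10.30 with PBS, a difference of 0.86 ± 0.21 (limma adjusted p = 0.0446). Txnip, an inhibitor of thioredoxin and of glucose uptake, read 11.81, 11.69 and 12.001 with AREG, against 11.20, 11.23 and 11.49 with PBS, a difference of 0.53 ± 0.13 (0.0444 in limma). Both genes had separate groups. Hmox1, the heme-degrading enzyme that macrophages clearing red cells express, read 7.51, 7.83 and 7.48 with AREG, against 8.44, 8.76 and 8.46 with PBS. The Hmox1 difference was -0.95 ± 0.13 (limma adjusted p = 0.00934), opposite in sign to the other called genes of that list.

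**Figure D4:**
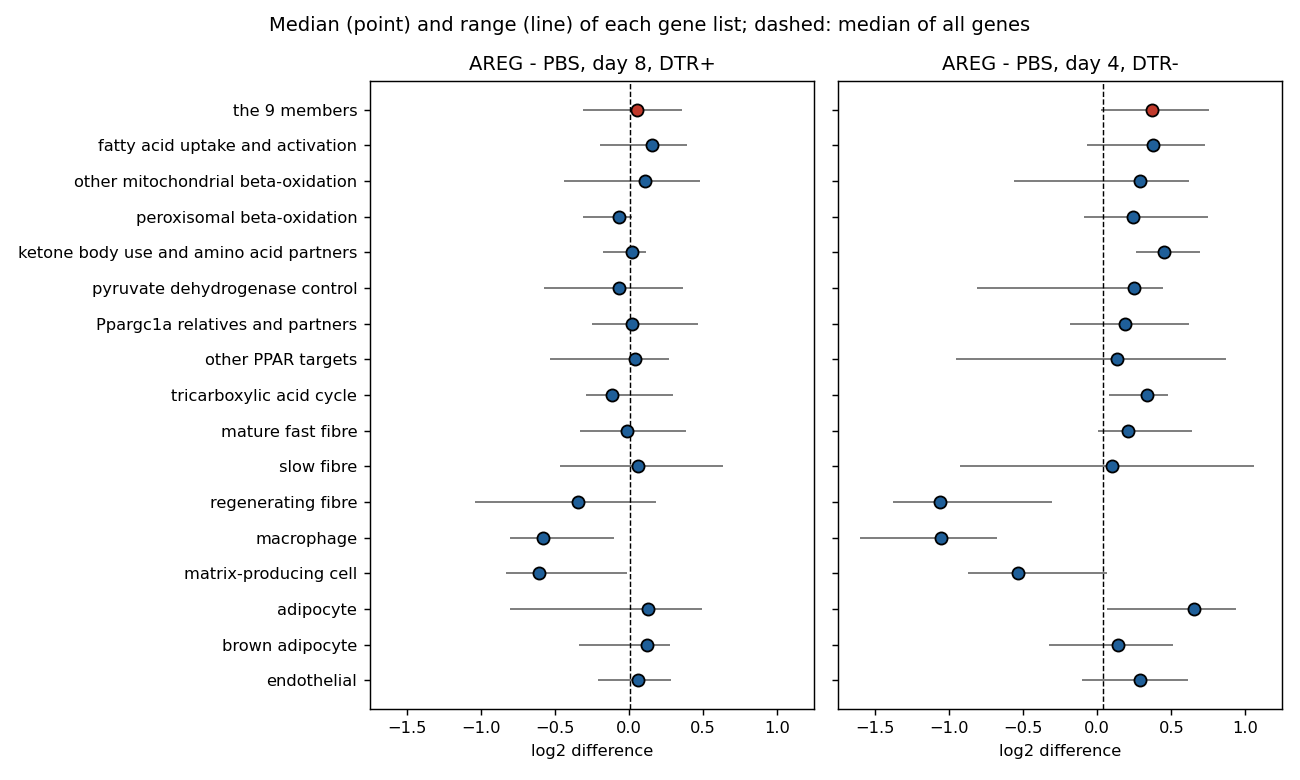
Median (point) and range (line) of the log2 difference in each gene list (rows; the 9 members, 8 pathway lists and 8 marker lists) for AREG minus PBS at day 8 and at day 4, with a dashed line at the median of all genes. At day 4 the pathway medians run from 0.13 to 0.45, and macrophage and regenerating-fibre markers stand at -1.06.

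Markers of other cells moved in the same muscles. With AREG at day 4, 12 of 19 macrophage markers were called lower and 0 higher (median -1.06), led by Cd300lb (-0.76 ± 0.13, limma adjusted p = 0.0198), Lgals3 (-1.59 ± 0.29, 0.0198), Msr1 (-1.23 ± 0.24, 0.0218) and Cd68 (-1.42 ± 0.28, 0.0251). Their summed intensity was 9540 to 12872 with AREG and 21069 to 27150 with PBS at day 4, and 8349 to 23267 with AREG and 19596 to 28600 with PBS at day 8, where 19 of 19 were below 0 (median -0.58), 0 were called and 8 passed unadjusted. Regenerating-fibre markers were called lower in 7 of 15 at day 4 (median -1.06), led by Chrng (-1.28 ± 0.22), Mymk (-1.31 ± 0.23), Ncam1 (-1.01 ± 0.18) and Ckb (-0.94 ± 0.17), each with a limma adjusted p of 0.0198. The sum of the 15 was 20586 to 27737 with AREG and 33036 to 46288 with PBS at day 4, and 8474 to 18792 with AREG and 19267 to 22098 with PBS at day 8 (median -0.35, 0 called, 6 unadjusted). Of 10 matrix-producing cell markers 0 were called at either day, with 4 unadjusted and a median of -0.61 at day 8 and 6 unadjusted and a median of -0.54 at day 4; their sum was 13416 to 27300 with AREG and 26245 to 29939 with PBS at day 8, and 22275 to 27854 with AREG and 34592 to 41324 with PBS at day 4. The part of these cells in the fatty acid oxidation results was not tested.

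Markers of cells that themselves burn or store fat had smaller median differences, apart from adipocytes. Of 20 mature fast-fibre markers 1 was called higher with AREG at day 4, Tcap (0.63 ± 0.13, limma adjusted p = 0.0294). The difference was above 0 in 20 of 20 of these markers, against 59.1% of all genes, with a median of 0.20. Their sum was 183793 to 199066 with AREG and 165663 to 182390 with PBS at day 4, without overlap, and 183415 to 184435 with AREG and 182546 to 187707 with PBS at day 8. Of 11 slow-fibre markers 1 was called lower at day 4, Casq2 (-0.92 ± 0.23, limma adjusted p = 0.0463; list median 0.10), with 6 of 11 above 0 and values up to 1.05 ± 0.29 for Myl3 (0.0599 in limma), and with sums of 23978 to 31134 with AREG and 22400 to 27889 with PBS. In the mean of the AREG effects Casq2 was called lower (-0.69 ± 0.16, limma adjusted p = 0.0347) and Myl3, a slow myosin light chain, higher (0.84 ± 0.20, 0.0371). Adipocyte markers were called higher in 4 of 14 (median 0.65): Lgals12 (0.93 ± 0.19, limma adjusted p = 0.0248), Cidec (0.73 ± 0.16, 0.0334), Dgat2 (0.77 ± 0.17, 0.0334) and Plin1 (0.64 ± 0.16, 0.0497). Their sum was 19842 to 22285 with AREG and 14606 to 18783 with PBS at day 4, and 16638 to 19488 with AREG and 17633 to 19292 with PBS at day 8.

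Of 9 brown adipocyte markers 0 were called in the AREG contrast of either day (2 unadjusted at day 8, 3 at day 4). In the mean of the AREG effects 1 was called higher and 0 lower. Only 3 of the 9 had a mean level above the median gene. The medians were 0.12 at day 8 and 0.14 at day 4, and the sum was 12569 to 13433 with AREG and 9156 to 10416 with PBS at day 4. Ucp1, which defines brown fat, read 5.07 to 5.59 in all 12 arrays. Endothelial markers gave 0 calls of 14 at day 4 (5 unadjusted, 13 above 0, median 0.29). Their sums were 6807 to 8593 with AREG and 5489 to 6763 with PBS at day 4. No marker was listed at 0, but the lowest linear intensity on any array was 4.65, so this says nothing about detection. Whether fat cells, fibres or vessels contributed to the differences of the members was not tested.

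In the PBS contrast of day 8 with day 4, regenerating-fibre markers were called lower in 9 of 15 (median -1.08), led by Chrng (-2.32), Mymk (-2.35), Ncam1 (-1.44) and Tnnt2 (-1.88), while 0 of 19 macrophage markers were called (1 unadjusted, median -0.08). Higher calls were Myh2 of the fast-fibre list (0.56 ± 0.12, limma adjusted p = 0.0197), Myl2 of the slow-fibre list (1.46 ± 0.28, 0.0103) and Cox7a1, a cytochrome oxidase subunit of muscle, of the brown adipocyte list (0.71 ± 0.16, 0.0265). The 8 pathway lists gave 0 calls of 117 there, with 32 unadjusted; medians were 0.31 for the tricarboxylic acid cycle and 0.32 for ketone body use, 0.28 for fatty acid uptake, 0.25 for other beta-oxidation genes and -0.07 for other PPAR targets. The part of the maturing fibres in the higher Ppargc1a and Ucp3 was not tested.

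By the mean absolute difference of centred levels over the 12 arrays, the genes closest to Ppargc1a among 9867 genes (those whose mean level reached the median) were Tpbgl (0.0888), Atxn1 (0.0900), Gsn (0.0902), Lifr (0.0902) and Kitl (0.0915), where the median gene stood at 0.252. Their AREG differences at day 8 were 0.05 for Tpbgl, 0.13 for Atxn1, 0.09 for Gsn, -0.07 for Lifr and 0.004 for Kitl. At day 4 they were 0.47, 0.53, 0.48, 0.54 and 0.53 in that order. These genes were picked for likeness over the same arrays, so differences near those of Ppargc1a follow from the choice. On the same measure the other members stood at 0.123 (Acadvl), 0.132 (Hadha), 0.153 (Cpt2), 0.182 (Ppara), 0.205 (Acadm), 0.235 (Acadl), 0.256 (Ucp3) and 0.269 (Pdk4). Acadvl and Hadha lay nearest among the members. Ucp3 and Pdk4 lay farther from Ppargc1a than the median gene, Ucp3 by little (0.256 against 0.252). The measure is not scaled by spread, and the SD within groups was wide for Ucp3 (0.319) and Pdk4 (0.439). These arrays share the normalization and the likeness is a description.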

How the data were processed

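RNA of tibialis anterior muscle was measured on 12 arrays, 4 groups of 3, of the type Mouse Gene 1.0 ST of Affymetrix. The deposited values are linear intensities of 24922 transcript clusters made by the authors with RMA in Affymetrix Power Tools, per the submitters' processing notes; neither versions nor a genome build were given in those sources. Intensities ranged from 4.65 to 21512, with no missing value and no identical pair of arrays. The number of arrays limits the precision.

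Clusters with 1 symbol in the platform annotation (21425; 1399 had several and 2098 none) gave 19752 genes; 921 genes had several clusters and kept the brightest. Entrez numbers of 21347 clusters matched RefSeq GRCm38.p6, which changed 0 symbols. Log2 intensities were fitted with limma 3.58.1 in R 4.3.3 as 4 group means (8 residual and 7.1 prior degrees of freedom), two-sided, with Benjamini-Hochberg adjustment over all genes and calls at an adjusted p under 0.05. For a single value, 3 arrays against 3 allow an exact permutation p of 0.1 at the lowest, so none is given. The members, lists and rules were chosen with earlier results of these data known. Every member is named; in other lists, up to 4 called genes with the smallest p, otherwise the 2 with the smallest p, and for likeness the 5 closest genes.

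Groups share replicate numbers. Deviations from the group means of same-numbered AREG and PBS arrays correlated at 0.558, 0.201 and 0.511 at day 4, all above 0.1. At day 8 they correlated at -0.198, 0.123 and -0.003. Of differently numbered day 4 arrays, AREG replicate 2 and PBS replicate 3 correlated at 0.270. The pairing comes from the data, not from the labels. Alternatives were the replicate as a block, the compared arrays only, array weights, repeated quantile normalization, median centring, 32 added before log2, the mean of all clusters of a gene, genes at or above the median level only, limma's trend and robust options, and leaving out each array. The limma script was run on simulated data with independent noise for each gene and array. That run checks the code and does not bear on the calls made here.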

Additional observations from a re-analysis of the deposited data

How the results depend on the processing

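Alternatives were run for the 9 members, their medians and the counts of calls, not for the genes of the other lists. No called member changed direction under them; the Acadl difference at day 4, not called, changed sign in 2. At day 4 the number of members called between AREG and PBS was 1 in the reported fit, 3 with the replicate block, 2 with only the arrays compared, 7 with array weights (26.9% of all genes called) and 2 with repeated quantile normalization. For the mean effect it was 6 with array weights (24.8%), 2 with repeated quantile normalization and 0 with the mean of all clusters. For the difference of effects, array weights gave 3 members (11.3%) and a median of -0.51. For the PBS groups, day 8 minus day 4, the count was 3 with array weights (8.35%), 1 with repeated quantile normalization and 1 with 32 added. For the AREG groups, array weights gave 1 member (33.8%) and a median of -0.10. The cause was not tested. In the fits with array weights, 1 AREG array of each day carried most of its group's weight (5.52 at day 4 and 7.43 at day 8). The block changed no member call in the other comparisons. Leaving out each array in turn, member counts were 0 to 4 at day 4 (median difference 0.30 to 0.46), 0 to 0 at day 8 (-0.060 to 0.21), 0 to 2 for the mean (0.17 to 0.27), 0 to 0 for the difference (-0.43 to -0.13), 0 to 2 for the PBS groups (0.26 to 0.40) and 0 to 0 for the AREG groups (-0.16 to 0.16). Over all genes, the calls at day 4 numbered 573 as reported, 914 with the block, 938 with only the arrays compared, 877 with repeated quantile normalization, 358 with 32 added, 5305 with array weights and 9 to 1336 without 1 array; the mean effect had 673 as reported, 1104 with the block and 34 to 1488 without 1 array, the PBS groups 463, 759 with only the arrays compared and 209 to 719, and the AREG groups 142 and 79 to 458. With array weights 1192 genes were called at day 8, against 1 as reported. With 3 arrays a group, small differences could be missed.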
